A study of Homo sapiens with 12 samples.

Results

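AP-1 is a family of dimeric transcription factors, and the 10 genes described here are its FOS members (FOS, FOSB, FOSL1 and FOSL2), its JUN members (JUN, JUNB and JUND) and 3 immediate early genes that are induced in the same burst (EGR1, ATF3 and IER2). They were chosen by name, as members of these families, with earlier results of these data known. All 10 had a row among the 26485 genes of the expression table, and 9 of them, all but FOSL1, were among the 13794 genes with a normalized read count of at least 1 in at least 3 libraries, the level required for testing. The cells were BT474, an established HER2-positive human breast cancer line, and the drug was lapatinib, a small molecule that inhibits the kinase activity of HER2 and EGFR, given at 1 µM every 3 days. There were 4 groups of 3 libraries, namely Control (day 0), drug-tolerant persisters (DTP, day 9), drug-tolerant expanding persisters (DTEP, month 6) and long-term resistant cells (LR, labelled Resistant, month 9). The treatment field of the labels names lapatinib for the Control libraries as well, whereas their titles say Control and their time is day 0. The groups followed each other in 1 cell line, the 3 libraries of a group came from parallel plates that the study calls technical replicates, and p-values therefore measure the spread between plates and not between independent derivations of resistance.

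Immediate early genes are transcribed within minutes of growth factor or stress signals, because the factors that switch them on are already present and need only be phosphorylated. ERK acts through the ternary complex factors and SRF on EGR1 and FOS, JNK and p38 act through JUN and ATF2 on JUN and ATF3, and most of the transcripts decay quickly. FOS proteins bind DNA mainly as dimers with JUN proteins, whereas JUN proteins also pair with each other. In HER2-positive breast cancer cells the HER2 kinase feeds the ERK pathway, and blocking it is known to lower ERK output in the short term. A value in bulk RNA does not separate a change in the share of cells that express a transcript from a change in RNA per cell.

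On GRCh38.p14 the FOS members lie on separate chromosomes, FOS at chr14:75278828-75282230, FOSB at chr19:45467996-45475179, FOSL1 at chr11:65892049-65900545 and FOSL2 at chr2:28392858-28417317. The JUN members are JUN at chr1:58780791-58784047, JUNB at chr19:12791486-12793315 and JUND at chr19:18279694-18281622, and the other genes are EGR1 at chr5:138465479-138469303, ATF3 at chr1:212565407-212620777 and IER2 at chr19:13150411-13154911. The promoter sequences of 6 of the genes are shown first, because these windows differ in the letters they share with known signal-response elements. The windows are from RefSeq (GRCh38.p14), run 5′ to 3′ on the gene's own strand and cover 250 bases before and 50 bases from the annotated start. They were matched by gene ID for 9 of the 10 genes, all but FOSL1. Capitals mark the letters TGACG or the complement CGTCA (the core of the cAMP response element, CRE, bound by CREB and ATF proteins), the whole CRE TGACGTCA, its variant TGACATCA (searched with its complement), the AP-1 site TGACTCA or TGAGTCA, and the CArG box, the SRF site. All were searched on both strands, and each whole CRE contains 2 overlapping TGACG cores. The windows lie at chr5:138465229-138465528 for EGR1 (forward strand), chr14:75278578-75278877 for FOS (forward), chr2:28392608-28392907 for FOSL2 (forward), chr1:58783998-58784297 for JUN (reverse), chr19:12791236-12791535 for JUNB (forward) and chr19:18281573-18281872 for JUND (reverse).
EGR1 promoter: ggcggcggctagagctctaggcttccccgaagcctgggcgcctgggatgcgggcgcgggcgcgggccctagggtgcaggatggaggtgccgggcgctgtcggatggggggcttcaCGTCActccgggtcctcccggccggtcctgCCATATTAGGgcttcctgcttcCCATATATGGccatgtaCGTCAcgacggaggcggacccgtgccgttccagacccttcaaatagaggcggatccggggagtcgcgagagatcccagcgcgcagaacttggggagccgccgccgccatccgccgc
FOS promoter: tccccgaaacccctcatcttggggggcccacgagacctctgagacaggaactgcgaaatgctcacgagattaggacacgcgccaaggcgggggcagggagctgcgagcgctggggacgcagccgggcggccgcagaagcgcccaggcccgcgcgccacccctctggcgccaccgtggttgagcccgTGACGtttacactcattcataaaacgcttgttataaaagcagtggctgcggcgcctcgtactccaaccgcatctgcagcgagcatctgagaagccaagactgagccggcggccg
FOSL2 promoter: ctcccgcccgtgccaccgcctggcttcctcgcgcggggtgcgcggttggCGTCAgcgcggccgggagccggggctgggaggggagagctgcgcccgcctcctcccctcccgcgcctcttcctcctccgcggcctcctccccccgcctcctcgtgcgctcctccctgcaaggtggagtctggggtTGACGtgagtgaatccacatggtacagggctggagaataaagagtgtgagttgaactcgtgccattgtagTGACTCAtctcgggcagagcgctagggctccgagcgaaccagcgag
JUN promoter: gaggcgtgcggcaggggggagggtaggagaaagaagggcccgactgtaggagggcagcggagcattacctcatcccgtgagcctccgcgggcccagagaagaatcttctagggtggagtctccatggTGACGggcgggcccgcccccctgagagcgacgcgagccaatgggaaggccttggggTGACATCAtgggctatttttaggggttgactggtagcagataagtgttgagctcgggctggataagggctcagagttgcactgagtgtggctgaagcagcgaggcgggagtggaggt
JUNB promoter: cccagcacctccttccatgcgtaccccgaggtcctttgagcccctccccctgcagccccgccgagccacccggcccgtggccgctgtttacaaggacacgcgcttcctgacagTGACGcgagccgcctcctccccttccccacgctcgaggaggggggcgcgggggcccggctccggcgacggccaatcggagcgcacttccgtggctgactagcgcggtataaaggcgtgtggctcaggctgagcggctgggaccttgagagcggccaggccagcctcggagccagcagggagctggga
JUND promoter: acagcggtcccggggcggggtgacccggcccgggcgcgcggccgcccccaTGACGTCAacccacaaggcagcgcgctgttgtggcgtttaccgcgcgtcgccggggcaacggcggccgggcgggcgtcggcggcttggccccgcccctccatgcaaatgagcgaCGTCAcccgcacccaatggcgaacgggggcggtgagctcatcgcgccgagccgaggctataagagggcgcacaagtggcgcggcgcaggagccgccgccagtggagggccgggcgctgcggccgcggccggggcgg

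EGR1 was the gene among the 9 whose window held a CArG box, and it held 2 of them, beginning 105 and 83 bases upstream of the start. A CArG box was found in 1.29% of all 35116 windows of this length. The TGACG core was present in 8 of the 9 windows (all but ATF3) and in 24.6% of all windows. In FOS it began 64 bases upstream, in FOSB 60 and in FOSL2 and EGR1 66 bases upstream. JUND held a whole CRE beginning 200 bases upstream (1.85% of all windows), JUN and ATF3 held TGACATCA beginning 67 and 123 bases upstream (2.61%), and FOSL2 held an AP-1 site beginning 4 bases after its first base (4.95%). The lower-case TATAAA that precedes the start in the FOS and JUNB sequences above was also found in FOSB and occurs in 11.5% of all windows. The ATF3 window belongs to the most upstream RefSeq start, whereas the canonical transcript in GENCODE starts downstream of it. These matches describe letters in the windows, and no binding was measured. The windows end 250 bases upstream, so elements farther upstream of FOS or any other gene were not searched.

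The depth of the libraries was 16383363 to 25030482 assigned reads, so that 1 read corresponded to a normalized read count of 0.0412 to 0.0576. All values below are such normalized read counts, unless a log2 change is named, and log2 changes were taken on log2(value + 1), which understates the change of the least abundant genes such as FOSB. As a check of the cell type, ERBB2 was high in every group (6526 ± 266 in Control and 1774 ± 190 in LR, SD, n = 3), whereas ESR1, another luminal marker, was 151 ± 1.94 in Control and 0.153 ± 0.0854 in LR. Of 10 luminal markers, 3 were higher and 3 lower in DTP than in Control (median log2 change 0.46), 3 higher and 7 lower in DTEP than in DTP (-1.64) and 2 higher and 7 lower in LR than in Control (-1.48), and 9 had a value of at least 1 in every DTEP and LR library. Of 9 markers of immune, stromal and endothelial cells, summed to between 53.96 and 131.9 in the 12 libraries and dominated by COL1A1 (54.4 ± 5.71 in DTP and 99.8 ± 20.7 in DTEP), the leukocyte markers PTPRC and CD3E were at or near 0 throughout.

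The third DTEP library stood apart in these genes, and this bears on most of the results. Its value was the lowest of the 3 DTEP libraries for 8 of the 9 tested genes, against 47.1% of all genes tested, and it was lowest by more than 1 log2 unit for 6 of the 9, against 5.71% of all genes. EGR1 was 227 and 256 in DTEP replicates 1 and 2 and 13.4 in replicate 3, so the mean of the first 2 was 18.1 times the value of replicate 3. The same ratio was 13.6 for FOS, 7.88 for FOSB, 5.36 for JUN, 4.02 for JUNB, 3.30 for IER2, 1.90 for ATF3 and 1.51 for JUND. FOSL2 went the other way, with its highest DTEP value in replicate 3 and a ratio of 0.641. Among 26 other tested immediate early genes, 19 (73.1%) were lowest in this library, 7 of them (26.9%) by more than 1 log2 unit. The summed level of 9 listed heat shock genes was 2885 in this library and 6784 and 8019 in the other DTEP libraries. In this library HSPA8 (981) and HSP90AA1 (1002) made up most of the sum, and HSPA1A (41.5) and HSPA1B (20.5) little of it. Across all genes the library correlated with the LR libraries at r = 0.971 to 0.986 and with the other DTEP libraries at r = 0.934 to 0.962. Its part in each result was therefore measured by leaving it out, and those values are given beside the results, a choice made after the data were seen. Because the 12 libraries share 1 estimate of the spread per gene, leaving it out also changes the p-values of comparisons that do not involve DTEP.

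**Figure D1:**
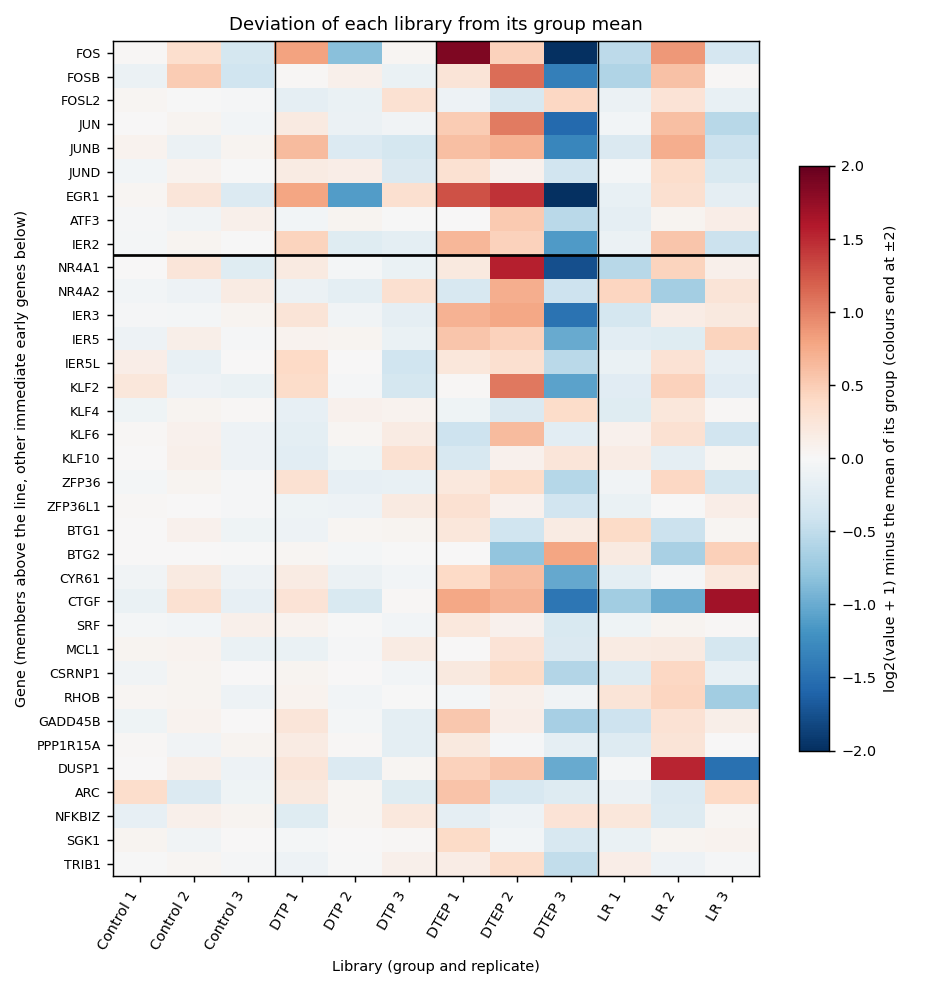
Each cell is the log2(value + 1) of a gene (rows) in a library (columns) minus the mean of that gene in the 3 libraries of its group, with red above and blue below the mean. DTEP replicate 3 is blue for 8 of the 9 tested AP-1 and immediate early genes and for most of the 26 other immediate early genes below the line. LR replicate 2 is above the mean for all 9, faintly for ATF3, and is the highest LR library for the other 8.

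The 9 tested genes did not move as a block at any transition. The log2 change was positive for 6 from Control to DTP, 3 from DTP to DTEP and 5 from DTEP to LR. Against Control it was positive for 7 in DTEP and for 8, all but FOSL2, in LR. The medians of the 9 were 0.02, -0.42, 0.38, 0.46 and 0.74, beside -0.01, 0.08, -0.07, 0.02 and -0.03 over all genes. From Control to DTP, 2 of the 9 rose past an adjusted p of 0.05 (ATF3 and JUND), against 25.2% of all genes tested, and 0 fell, against 28.8% of all genes. None of the 9 fell at an unadjusted p under 0.05 in limma. Lower calls also numbered 0 in edgeR and in DESeq2, which called 51.7% and 54.9% of all genes in either direction. From DTP to DTEP, 2 rose (FOS and FOSB), against 35.7% of all genes, and 3 fell (FOSL2, JUND and ATF3), against 32.6%. From DTEP to LR, 0 rose or fell in limma, where the background was 3.04% higher and 4.31% lower. At that transition 1 gene (FOSL2) had an unadjusted p under 0.05 in limma. There edgeR called 0 of the 9 and DESeq2 1 (FOSL2), against 13.8% and 22.4% of all genes in either direction. Relative to Control, DTEP cells had 1 gene higher (ATF3), against 29.5% of all genes, and 1 lower (FOSL2), against 28.7%. In LR cells 2 were higher than in Control (ATF3 and JUNB), against 30.2%, and 1 was lower (FOSL2), against 32.6%. The study's stricter rule, an adjusted p below 0.05 together with an absolute log2 change above 2, was met by FOS from DTP to DTEP and by none of the 9 in the other comparisons, where 1 gene at most (ATF3 from Control to DTP, FOS for DTEP and for LR against Control) met it in edgeR and in DESeq2 and none met it from DTEP to LR. At an unadjusted p under 0.05, limma gave 1 gene above that change for DTEP against Control and 0 for the other comparisons in which none met the rule. The rule was met by 4.92% of all genes from Control to DTP, 15.2% from DTP to DTEP, 0.681% from DTEP to LR, 10.6% for DTEP against Control and 12.8% for LR against Control.

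Without DTEP replicate 3 the counts were 5 genes from Control to DTP (ATF3, JUND, JUNB and IER2 higher, EGR1 lower), 4 from DTP to DTEP (FOS, FOSB and EGR1 higher, FOSL2 lower), 1 from DTEP to LR (FOSL2 higher), 8 for DTEP against Control (all but JUN, with FOSL2 lower) and 6 for LR against Control (FOS, EGR1, ATF3, JUNB and IER2 higher, FOSL2 lower). The share of all genes tested that passed the adjusted p in either direction went from 54.0% to 63.6% between Control and DTP, from 68.2% to 71.3% between DTP and DTEP, from 58.2% to 63.7% for DTEP against Control and from 62.8% to 69.9% for LR against Control, and from 7.35% to 47.5% between DTEP and LR. The count from DTP to DTEP also depended on other libraries. It was 2 without DTP replicate 2, DTP replicate 3 or DTEP replicate 1, and 3 without DTP replicate 1 or DTEP replicate 2.

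**Figure D2:**
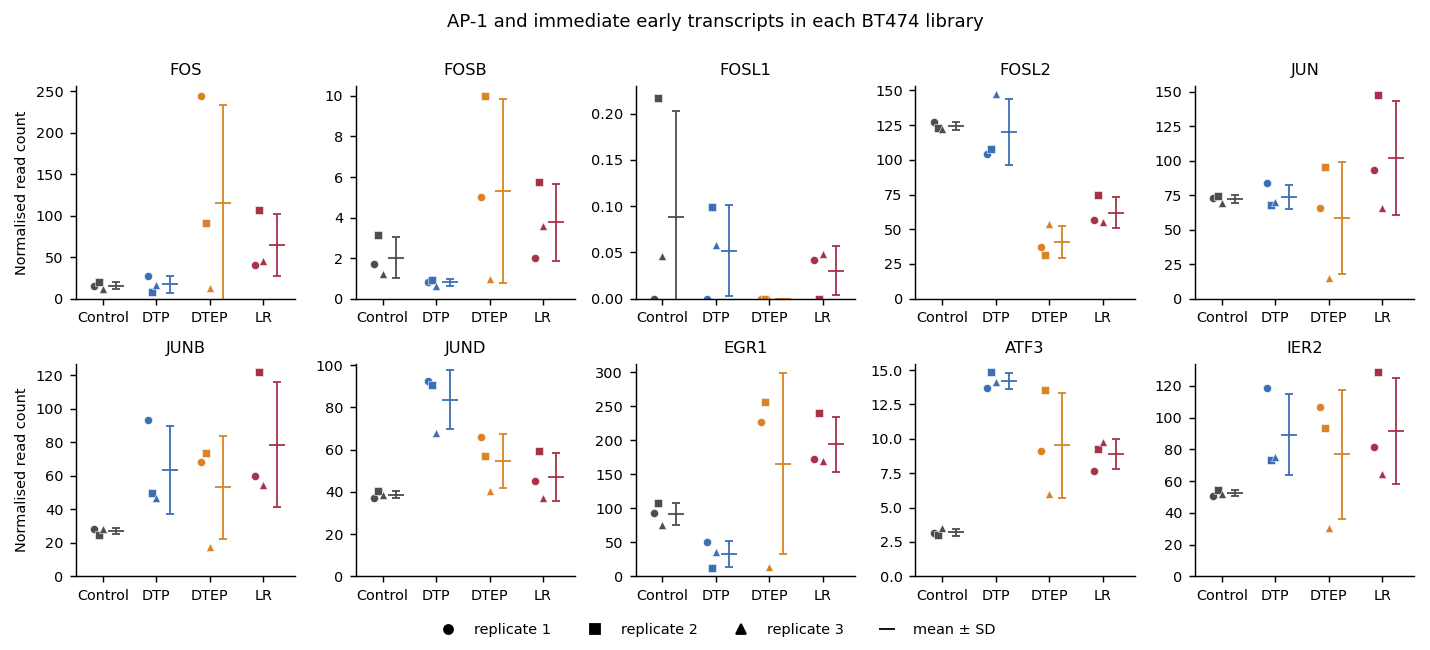
Normalized read counts (y axis, from 0, with its own scale for each gene) of the 10 genes in the 12 BT474 libraries, with a symbol for each replicate and the mean ± SD beside them (bars that would pass below 0 are cut at the axis). FOS and EGR1 spread widest in DTEP, from 12.3 to 244 and from 13.4 to 256, whereas the 3 ATF3 values of DTP all lie above the 3 of Control.

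FOS, the founding member of the family and a short-lived protein, did not differ past the threshold between Control and DTP. Its values were 15.7, 19.9 and 11.9 in Control, 27.9, 8.24 and 16.0 in DTP, 244, 91.3 and 12.3 in DTEP, and 40.6, 107 and 46.0 in LR. The Control and DTP values overlapped, 2 of the DTEP values were above all 6 of these and the third was inside their range, and all 3 LR values were above both earlier groups. The log2 change from Control to DTP was 0.00 (SE 0.82) with an adjusted p of 1.0 in limma. Between DTP and DTEP, FOS rose by a log2 change of 2.02 (SE 0.82, adjusted p = 0.0448 in limma). The change was 3.18 with an adjusted p of 0.00025 in limma without DTEP replicate 3, and 1.08 with an adjusted p of 0.197 without DTEP replicate 1, the highest library. The call was also missed without DTP replicate 2 (adjusted p = 0.151), DTP replicate 3 (0.0885) or DTEP replicate 2 (0.125), without the filter on low values (0.0681), with only the 6 libraries compared (0.101) and under median-of-ratios scaling (0.0555), which moved the median of all genes in that comparison by -0.11. Against Control, the LR log2 change was 1.85, which missed the threshold in limma (adjusted p = 0.0672), passed without DTEP replicate 3 (0.00476) and with only the 6 Control and LR libraries in the fit (0.00428), and passed in edgeR (0.042) and DESeq2 (0.0331). The DTEP change against Control, 2.02, likewise missed in limma (adjusted p = 0.0515) and passed in edgeR (0.00994), in DESeq2 (0.00287) and without DTEP replicate 3 (3.18, adjusted p = 0.000314). It was 1.08 (adjusted p = 0.214 in limma) without DTEP replicate 1 and 1.79 (0.138) without DTEP replicate 2.

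FOSB, a close relative of FOS that is induced with it, was a low transcript. It was 1.70, 3.15 and 1.21 in Control, 0.835, 0.938 and 0.633 in DTP, 5.02, 10.0 and 0.954 in DTEP, and 1.99, 5.76 and 3.59 in LR. Every DTP value was below every Control value, and every DTEP and LR value was above every DTP value. The separation of DTEP from DTP was narrow and rested on few reads, with DTEP replicate 3 at 0.954 (17 reads) and DTP replicate 2 at 0.938 (19 reads). The Control to DTP change of -0.70 missed the threshold (adjusted p = 0.266 in limma) and passed with only those 6 libraries in the fit (0.0245). Between DTP and DTEP, FOSB rose by 1.49 (SE 0.51, adjusted p = 0.01999 in limma), and by 2.18 without DTEP replicate 3. Without DTEP replicate 2, the highest library, the change was 0.93 with an adjusted p of 0.0968 in limma, and the call was also missed without DTP replicate 3 (0.0569) or DTEP replicate 1 (0.0537). FOSL1, the FOS relative that is most often high in basal and mesenchymal breast cells, was covered by 0 to 4 reads in Control, 0 to 2 in DTP, 0 in DTEP and 0 to 1 in LR, so that no fold change can be given. A count of 0 allows a normalized read count of up to 0.124 to 0.173, depending on the library (3 reads, counting error only).

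FOSL2, which encodes FRA-2 and lacks the strong activation domain of FOS, fell between DTP and DTEP. Its values were 127, 123 and 122 in Control, 104, 108 and 147 in DTP, 37.5, 31.8 and 54.1 in DTEP, and 56.3, 74.6 and 55.0 in LR. All 6 Control and DTP values were above all 6 DTEP and LR values. The DTP libraries lay on both sides of the Control libraries, 2 below and 1 above, and their mean did not differ from Control past the threshold (log2 change -0.07, SE 0.20, adjusted p = 0.800 in limma). The fall from DTP to DTEP was by 1.54 on the log2 scale (SE 0.20, adjusted p = 2.79e-05 in limma), and it stayed lower than Control in DTEP (-1.61, adjusted p = 2.71e-05) and in LR (-1.0, adjusted p = 0.00091, both in limma). Each of these 3 calls held whichever library was left out, with log2 changes from -1.75 to -1.37, from -1.82 to -1.44 and from -1.14 to -0.93. From DTEP to LR it was higher by 0.60, which missed the threshold (adjusted p = 0.0727 in limma) and passed without DTEP replicate 3 (0.81, adjusted p = 0.00302) and in DESeq2 (0.0389).

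Per kb of transcript, FOS and FOSL2 exchanged places within the family between Control and LR. On the scale of normalized read counts per kb of canonical transcript, which allows levels of different genes to be compared, FOSL2 made up 69.8% ± 5.75 of the summed FOS family level in Control and 68.8% ± 13.5 in DTP, but 24.5% ± 6.34 in LR (SD, n = 3). FOS made up 28.1% ± 4.77 in Control, 30.2% ± 13.8 in DTP and 73.0% ± 6.31 in LR. The ranges of Control and LR did not overlap, with 63.7% to 75.1% against 17.4% to 29.7% for FOSL2. The order of the 2 genes in LR depends on the division by transcript length. Without it, FOSL2 exceeded FOS in LR replicates 1 (56.3 against 40.6) and 3 (55.0 against 46.0). In LR replicate 2 it was below FOS (74.6 against 107). The DTEP libraries ranged from 4.55% to 56.8% for FOSL2 and from 41.4% to 94.4% for FOS, and DTEP replicate 3 was the library in which FOSL2 still exceeded FOS. The summed level of the family was 26.6 ± 2.30 per kb in Control, 26.3 ± 5.27 in the DTP libraries, 62.6 ± 55.2 in the DTEP libraries and 41.0 ± 19.7 in LR. FOSB contributed between 0.565% and 5.22% in any library and FOSL1 at most 0.444%.

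**Figure D3:**
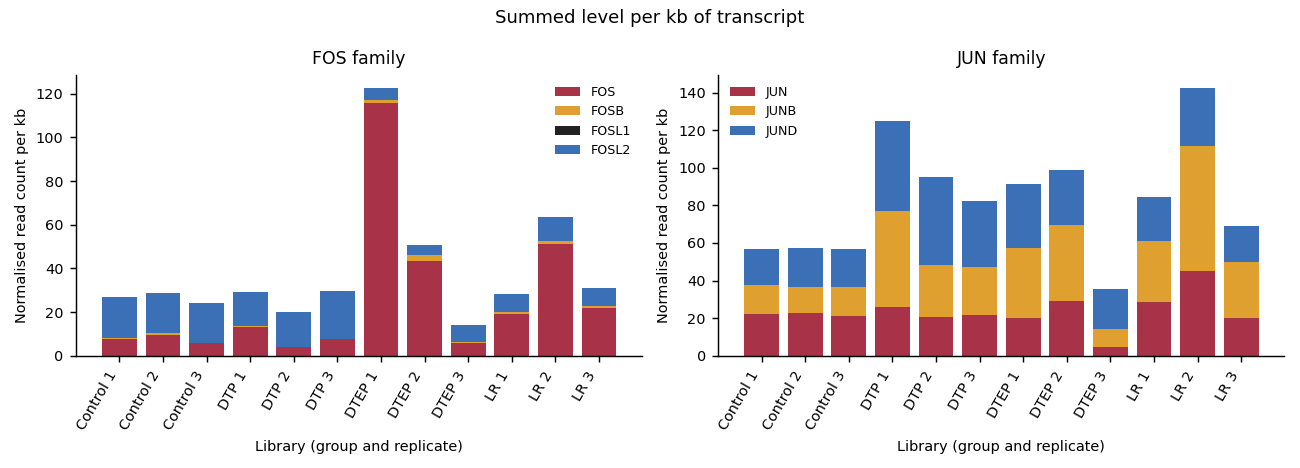
Stacked bars of the normalized read count per kb of canonical transcript (y axis, from 0) of the FOS family (left) and the JUN family (right) in each library. FOSL2 is the larger part of the FOS family bars in Control and DTP and FOS in DTEP replicates 1 and 2 and in LR, and the JUN family bar of DTEP replicate 3 is the lowest of the 12.

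The JUN members behaved differently from each other. JUN, the partner of FOS in the classical AP-1 dimer, was 72.9, 74.8 and 69.3 in Control, 83.7, 67.7 and 70.0 in DTP, 65.6, 95.6 and 15.0 in DTEP, and 93.1, 147 and 65.5 in LR. The groups overlapped throughout, and no comparison passed the threshold, with log2 changes of 0.02 (SE 0.51) from Control to DTP, -0.67 from DTP to DTEP and 1.06 from DTEP to LR (adjusted p from 0.160 to 0.976 in limma). The DTP to DTEP change turned its sign without DTEP replicate 3, to 0.11 (adjusted p = 0.737 in limma), and the DTEP to LR change went to 0.28 (0.411). JUN was also the gene that did not pass against Control in DTEP without that library (0.13, adjusted p = 0.694 in limma).

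JUNB, a JUN family member that can restrain JUN and that rises with many growth and stress signals, was 28.3, 24.8 and 28.1 in Control and 93.5, 49.8 and 46.8 in DTP. All 3 DTP values were above all 3 Control values, a mean ratio of 2.34. The log2 change of 1.13 (SE 0.48) missed the threshold in limma (adjusted p = 0.0653) and passed in edgeR (0.0479), in DESeq2 (0.0141), without DTEP replicate 3 (0.00685) and with only the 6 libraries (0.00556). It also missed in limma whichever single Control or DTP library was left out. Without DTP replicate 1, the highest library, the change was 0.81 (adjusted p = 0.236 in limma). In DTEP the values were 68.1, 73.3 and 17.6, with the third below every Control library. In LR they were 59.8, 122 and 54.2, and JUNB was higher than in Control by a log2 change of 1.41 (SE 0.48, adjusted p = 0.0224 in limma, mean ratio 2.90). That call was missed without Control replicate 2 (adjusted p = 0.0608) or LR replicate 2 (0.0992).

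JUND, which is often present in resting cells and opposes proliferation in several settings, rose in DTP. It was 37.0, 40.4 and 38.5 in Control and 92.5, 90.8 and 67.7 in DTP, with no overlap, a mean ratio of 2.17 and a log2 change of 1.08 (SE 0.21, adjusted p = 0.00109 in limma). The change lay between 1.00 and 1.23 whichever library was left out, and each of those adjusted p values passed the threshold. In DTEP the values were 66.1, 56.8 and 40.6 and in LR 45.0, 59.3 and 37.1. JUND fell from DTP to DTEP by 0.62 on the log2 scale (SE 0.21, adjusted p = 0.01897 in limma), a call missed without DTP replicate 1 (adjusted p = 0.0691), DTP replicate 2 (0.0685) or DTEP replicate 3 (0.0648). In LR, 2 of the 3 libraries were above every Control library and 1 was within the Control range, and the change missed the threshold (0.26, adjusted p = 0.307 in limma).

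Per kb, the summed JUN family level was 57.0 ± 0.451 in Control, 101 ± 21.8 in the DTP libraries, 75.2 ± 34.8 in the DTEP libraries and 98.6 ± 38.7 in LR (SD, n = 3). JUN was the largest of the 3 in Control (38.9% ± 1.20 of the family), JUND in DTP (43.6% ± 5.58) and JUNB in LR (42.7% ± 4.0). The Control and LR shares of JUNB, 23.6% to 27.2% and 38.6% to 46.6%, did not overlap, and neither did those of JUND, 33.6% to 36.5% and 21.6% to 27.9%. The shares of JUNB and JUND in DTP, 28.6% to 40.9% and 38.5% to 49.5%, overlapped each other, so their order in DTP was within the spread.

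EGR1, a zinc finger factor whose transcript is often used as a readout of ERK activity, was lower in DTP and higher in LR than in Control in every library. Its values were 92.8, 107 and 74.6 in Control, 49.8, 12.6 and 35.9 in DTP, 227, 256 and 13.4 in DTEP, and 172, 240 and 169 in LR. The DTP values were all below and the LR values all above the Control values, and in DTEP 2 libraries were within or above the LR range and 1 was within the DTP range. The log2 change from Control to DTP was -1.64 (SE 0.87) and missed the threshold in limma over 12 libraries (adjusted p = 0.132). It passed without DTEP replicate 3 (0.00281) and with only the 6 libraries (0.0145), the change was -1.08 (0.378) without DTP replicate 2, the lowest library, and edgeR and DESeq2 did not call it. The DTP to DTEP change was 1.68 (adjusted p = 0.104 in limma) with all libraries and 3.04 (5.63e-05) without DTEP replicate 3. Leaving out DTEP replicate 1 gave 1.04 (0.325), leaving out DTEP replicate 2 gave 0.96 (0.372) and leaving out DTP replicate 2 gave 1.12 (0.321). It passed in edgeR (2.34, adjusted p = 0.0176) and DESeq2 (2.19, adjusted p = 0.014). LR was higher than Control by 1.07 (adjusted p = 0.301 in limma), a mean ratio of 2.12, which passed without DTEP replicate 3 (0.0244) and with only the 6 libraries (0.00178) and was not called by edgeR or DESeq2. The DTEP change against Control was 0.05 with all libraries and 1.40 (adjusted p = 0.0123 in limma) without DTEP replicate 3, but -0.59 (0.601) without DTEP replicate 1 and -0.68 (0.551) without DTEP replicate 2.

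ATF3, a stress-induced member of the ATF family that dimerizes with JUN proteins, was higher than Control in all 3 later groups. It was 3.13, 2.99 and 3.49 in Control, 13.7, 14.9 and 14.1 in DTP, 9.09, 13.5 and 5.95 in DTEP, and 7.65, 9.24 and 9.74 in LR. Every DTP, DTEP and LR library was above every Control library. The mean ratio of DTP to Control was 4.44 and the log2 change 1.86 (SE 0.23, adjusted p = 5.84e-05 in limma). ATF3 was still higher than Control in DTEP (1.26, adjusted p = 0.000589) and in LR (1.23, adjusted p = 0.000641, both in limma). Each of these 3 calls held whichever library was left out, with log2 changes from 1.82 to 1.91, from 1.00 to 1.53 and from 1.16 to 1.32. The fall from DTP to DTEP was by 0.60 on the log2 scale (adjusted p = 0.0380 in limma). It was missed when any 1 of the 3 DTP libraries, DTEP replicate 1 or DTEP replicate 3 was left out (adjusted p from 0.0617 to 0.127 in limma). The call was also missed in edgeR (0.069), without the filter on low values and with only the 6 libraries compared.

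IER2, a small immediate early protein of the nucleus, tracked JUNB. It was 50.8, 54.3 and 52.0 in Control, 119, 73.4 and 75.4 in DTP, 107, 93.4 and 30.3 in DTEP, and 81.2, 129 and 64.7 in LR. All DTP and LR values were above all Control values, and DTEP replicate 3 was below them. The changes of 0.72 from Control to DTP and 0.74 for LR against Control missed the threshold in limma over 12 libraries (adjusted p = 0.149 and 0.128), passed without DTEP replicate 3 (0.0191 and 0.0152) and with only the 6 libraries compared (0.00904 and 0.0272), and were not called by edgeR or DESeq2. Leaving out single libraries gave changes as low as 0.50 and 0.46, with adjusted p values of up to 0.398 and 0.382 in limma.

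**Figure D4:**
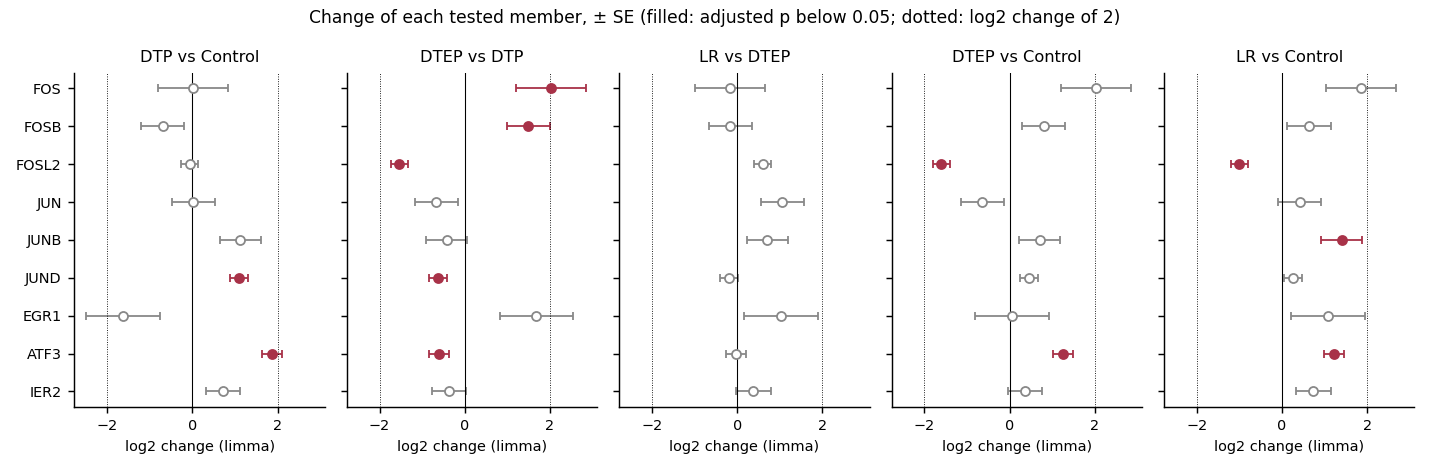
Log2 change (x axis, limma on log2(value + 1), ± SE) of the 9 tested genes (rows) in 5 comparisons, with filled points at an adjusted p below 0.05 and dotted lines at a log2 change of 2. FOSL2, JUND and ATF3 have the shortest error bars, and FOS and EGR1, with SE of 0.82 and 0.87, the longest.

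**Figure D5:**
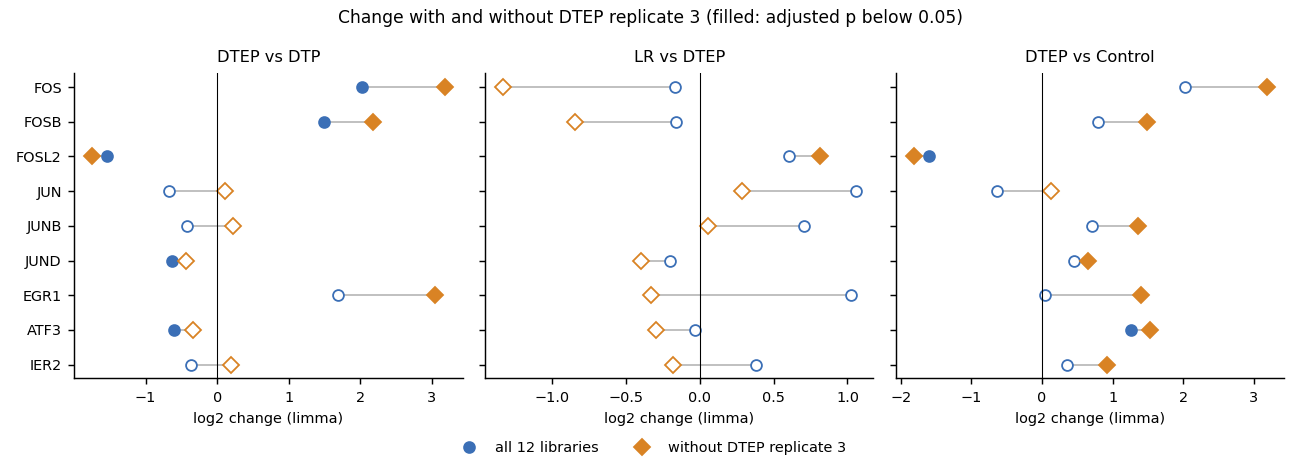
Log2 change (x axis) of the 9 tested genes (rows) in the 3 comparisons that involve DTEP, with all 12 libraries (circles) and without DTEP replicate 3 (diamonds), filled at an adjusted p below 0.05 in limma. For DTEP against Control the filled points go from 2 to 8, and EGR1 moves from 0.05 to 1.40.

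The spread between parallel plates was itself wide for part of the genes and narrow for others. In DTP, the SD of EGR1 over the 3 libraries on the log2 scale was 0.99 and that of FOS 0.82, larger than for 99.99% and 99.96% of all genes tested, whereas that of ATF3 was 0.05, larger than for 10.5%. In Control, FOSB (0.46) and FOS (0.35) were more variable than 99.98% and 99.6% of genes and FOSL2 (0.03) than 14.4%. In DTEP, the SDs of EGR1 (2.35) and FOS (2.14) were each larger than for 99.9% of genes. LR replicate 2 was the highest LR library for 8 of the 9, all but ATF3 (36.4% of all genes), and for 13 of the 26 other immediate early genes, and DTP replicate 1 was the highest DTP library for 6 of the 9 (34.4% of all genes). Replicates have no order, and what set these libraries apart was not tested.

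Among all genes tested, the patterns most like a member's over the 12 libraries (Pearson's r on the log2 scale, a description over libraries that share groups and the same few deviating plates) were those of other immediate early genes for JUNB and IER2. JUNB was most like IER2 (r = 0.964), ZFP36 (0.941), which encodes a protein that destabilizes AU-rich mRNAs, and CSRNP1 (0.925), and IER2 was most like JUNB, ZFP36 (0.885) and CSRNP1 (0.872). ZFP36 was 34.5, 37.1 and 35.2 in Control, 59.3, 42.4 and 43.0 in DTP, 58.5, 65.5 and 33.6 in DTEP, and 60.7, 85.2 and 49.8 in LR. FOSL2 was most like LINC01004 (0.992), IGF1R (0.990), the IGF-1 receptor, and RALGPS1 (0.985), and JUND most like TRAPPC3 (0.987), USF1 (0.979) and UNC45A (0.974). FOS was most like RPP25 (0.963), SPR (0.910) and PELO (0.898), ATF3 most like PRPF40B (0.976), LZTS3 (0.974) and INTS12 (0.961), and FOSB most like RDH11 (0.893), CIAO1 (0.887) and SRXN1 (0.886). The values were lower for EGR1, with ETS2 (0.851), BDH1 (0.849) and IDH1 (0.829), and for JUN, with UXS1 (0.828), PIP4K2C (0.816) and LSS (0.813). Between members, FOS and EGR1 had r = 0.808, FOSB and EGR1 0.820, and FOS and FOSL2 -0.72.

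Other immediate early genes also went in different directions. Of 31 listed, 26 were tested, and 6 rose and 3 fell from Control to DTP (8 and 5 without DTEP replicate 3), 5 rose and 7 fell from DTP to DTEP (7 and 6 without it), and 0 passed from DTEP to LR in limma, where 3 had an unadjusted p under 0.05, edgeR and DESeq2 called 1 each, and 2 rose and 8 fell without DTEP replicate 3. Over all genes tested 25.2% rose and 28.8% fell at the first of these transitions and 35.7% and 32.6% at the second. From DTEP to LR 3.04% rose and 4.31% fell in limma, and 47.5% passed in either direction without DTEP replicate 3. In edgeR 13.8% and in DESeq2 22.4% of all genes passed at that transition in either direction. The median log2 change of the list was 0.15, -0.12 and -0.08, beside -0.01, 0.08 and -0.07 over all genes, and without DTEP replicate 3 the DTP to DTEP median was 0.18. PPP1R15A, which encodes the GADD34 subunit that reverses the integrated stress response, was 19.9 ± 0.961 in Control, 81.0 ± 10.2 in DTP and 21.9 ± 2.94 in DTEP (SD, n = 3), a rise of 1.97 and a fall by 1.84 on the log2 scale. BTG1, an antiproliferative gene, rose from 50.3 ± 3.02 to 225 ± 13.8 (log2 change 2.14). NFKBIZ and SGK1 fell in DTP (log2 changes -0.77 and -0.59). In DTEP relative to DTP, KLF2 (2.40) and NFKBIZ (1.60) rose and IER5L fell (-1.72). DUSP1, a MAPK phosphatase, was 55.2 ± 4.02 in Control, 54.6 ± 9.57 in DTP, 67.8, 73.0 and 23.9 in DTEP and 97.0, 291 and 35.1 in LR, and its change from DTEP to LR of 1.01 missed the threshold (adjusted p = 0.237 in limma). EGR2, EGR3, EGR4, NR4A3 and SIK1 were too low to be tested.

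Of 14 listed AP-1 partners and relatives among the other bZIP factors, 11 were tested, with 2 higher and 2 lower from Control to DTP (4 and 3 without DTEP replicate 3), 2 higher and 5 lower from DTP to DTEP and 1 higher from DTEP to LR (3 higher and 3 lower without DTEP replicate 3), and median log2 changes of 0.29, -0.54 and 0.28. The shares of all genes were 25.2% higher and 28.8% lower from Control to DTP, 35.7% and 32.6% from DTP to DTEP, 3.04% and 4.31% from DTEP to LR, and 47.5% in either direction at that last transition without DTEP replicate 3. CREB5 fell at both of the first transitions, from 34.4 ± 2.51 to 5.88 ± 1.45 and then to 0.568 ± 0.0462 (log2 changes -2.38 and -2.11). ATF2, the partner of JUN at CRE-like sites, fell from 70.9 ± 3.72 to 22.7 ± 8.49 in DTP (-1.66) and rose to 68.4 ± 23.2 in DTEP (1.55). BATF, which binds with JUN proteins and lacks an activation domain, fell from 30.5 ± 6.16 in DTP to 2.90 ± 2.79 in DTEP (-3.34), and MAFF rose (0.82). JDP2, a repressor that dimerizes with JUN, rose in DTP (0.55) and from DTEP to LR (42.3 ± 3.86 to 78.4 ± 19.6, log2 change 0.85, adjusted p = 0.0182 in limma), and MAF rose in DTP (1.04).

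Of 18 kinases and factors upstream of AP-1, all tested, 3 rose and 9 fell from Control to DTP and 7 rose and 2 fell from DTP to DTEP, with medians of -0.51 and 0.29, beside shares of all genes of 25.2% higher and 28.8% lower and of 35.7% and 32.6%. Between DTEP and LR 0 passed in limma, where 3 had an unadjusted p under 0.05, edgeR called 1 and DESeq2 2, and 8 passed without DTEP replicate 3. Over all genes 3.04% were higher and 4.31% lower in limma at that transition, and 47.5% passed in either direction without DTEP replicate 3. The share in either direction was 13.8% in edgeR and 22.4% in DESeq2. These shares of all genes also stand beside the counts of AP-1 targets and heat shock genes below. MAP3K1, which activates the JNK pathway, fell in DTP from 67.3 ± 7.10 to 20.1 ± 10.4 (-1.81) and rose in DTEP to 81.6 ± 28.4 (2.03). RPS6KA3, which encodes the ERK-activated kinase RSK2, fell in DTP (-1.63). ELK4, a ternary complex factor, rose from 20.1 ± 4.85 in DTP to 137 ± 44.6 in DTEP (2.68). MAP2K7 (0.84) and MKL1 (0.40), an SRF coactivator, rose in DTP, and MAPK10, which encodes JNK3, fell from 26.5 ± 1.67 to 1.67 ± 1.60 from DTP to DTEP (-3.54), with RPS6KA1 (-1.83). Of 15 genes known as AP-1 targets, 7 were tested. From Control to DTP HBEGF (0.70) and PLAUR (0.48) rose and CCND1 fell (-0.76, adjusted p = 0.0469 in limma), and from DTP to DTEP 4 fell and 0 rose at the adjusted threshold (2 rose without DTEP replicate 3), among them VIM (90.1 ± 6.98 to 4.82 ± 5.37) and CD44 (32.9 ± 4.18 to 4.99 ± 4.74). CD44 fell further to 0.0443 ± 0.0424 in LR (adjusted p = 0.0459 in limma), the 1 target that passed from DTEP to LR, against 4 without DTEP replicate 3. Of the 9 heat shock genes, 6 fell and 0 rose from Control to DTP, with HSPH1 (-1.89) and HSPD1 (-1.28) falling the most, and their summed level was 7825 to 8142 in Control, 3628 to 3998 in DTP and 3169 to 4149 in LR. From DTP to DTEP 3 rose, HSPD1 (1.17) and HSPH1 (0.95) among them, and 1 fell (HSPA1B, -0.89), whereas 6 rose and 0 fell without DTEP replicate 3. From DTEP to LR 0 passed in limma, with 3 at an unadjusted p under 0.05, 2 called by edgeR and 3 by DESeq2, and 7 fell without DTEP replicate 3.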

How the data were processed

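mRNA of 12 BT474 libraries (TruSeq stranded mRNA) was aligned and counted by the authors with Rsubread against hg38 and RefSeq gene models with default settings, which ignore strand, so that reads antisense to a gene can be counted for it. The deposited values are a normalized signal per gene, and they equal CPM (read counts over the library total) scaled by TMM factors of edgeR, which the submitters' processing notes list beside bcl2fastq. Whole reads were recovered for 199680 of 199680 values above 0 (100.0%, within 1e-06 of a whole number). The libraries held between 16383363 and 25030482 assigned reads. A limit from a count of 0 covers counting error only.

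The values were tested with limma (3.58.1, R 4.3.3) as log2(value + 1) with a mean-variance trend over all 12 libraries, for the 13794 of 26485 genes that reached a value of 1 in 3 or more libraries, with Benjamini-Hochberg adjustment over all of them. Calls were made at an adjusted p below 0.05 and, as in the study, also at an absolute log2 change above 2. Recovered reads were also tested with edgeR's quasi-likelihood test (4.0.16) and DESeq2 (1.42.0), and the fit was tested on simulated data. Other alternatives were pseudocounts of 0.1 and 0.5, no filter, a mean of at least 5, no trend, the 6 libraries compared, median-of-ratios scaling, a replicate block and leaving out each library. Leaving out DTEP replicate 3 for comparisons without DTEP and for the gene lists was added after the data were seen.

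The members and gene lists were chosen with earlier results of these data known. All 10 members are named in every comparison. Of each list, the 2 genes with the highest and the 2 with the lowest log2 change among those called are named at each transition, and DUSP1. For each member the 3 genes with the highest Pearson's r are named. The marker lists of luminal and of other cell types served as a check, and their genes named by this rule are not all printed. ERBB2, PTPRC, CD3E and the values of ZFP36 are given outside the rule, chosen after their values were seen. Group levels per kb used the length of the canonical GENCODE transcript, and gene positions, IDs and promoter windows came from RefSeq on GRCh38.p14. No protein sequence was used here.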

Additional observations from a re-analysis of the deposited data

How the results depend on the processing

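Over 45 values (9 genes in 5 comparisons) and their 733 alternatives, 649 kept the direction and the side of the adjusted p threshold, 33 newly passed it, 23 no longer passed it and 28, from 13 of the values, changed sign. Numbers of genes past the adjusted p changed by more than 1.5 times under some settings. With the 6 libraries compared, 6 genes passed from Control to DTP, 3 from DTP to DTEP and 6 for LR against Control. The shares of all genes tested in that setting were 73.0%, 60.4% and 71.6%. Without the filter, 3 passed from DTP to DTEP, and DESeq2 called 1 from DTEP to LR, against 22.4% of all genes. Leaving out single libraries gave 2 to 5 genes from Control to DTP, 2 to 4 from DTP to DTEP, 0 to 1 from DTEP to LR, 2 to 8 for DTEP against Control and 2 to 6 for LR against Control. The number with an absolute log2 change above 2 was 1 from Control to DTP with a pseudocount of 0.1, edgeR or DESeq2, and 2 with a log2 threshold of 1. From DTP to DTEP it was 2 with a pseudocount of 0.1, 0 without the filter, with the 6 libraries or with median-of-ratios scaling, 3 with edgeR, DESeq2 or a log2 threshold of 1, and 0 to 3 without single libraries. For DTEP against Control it was 1 with edgeR or DESeq2, 2 with a log2 threshold of 1 and 0 to 1 without single libraries, and for LR against Control 1 with edgeR or DESeq2 and 3 with a log2 threshold of 1. The cause of these changes was not tested.

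Replicate numbers did not pair the libraries: 2 of 18 same-number pairs had correlated deviations over 0.1 (-0.44 to 0.36) and 2 of 12 libraries correlated best with their own number. With a replicate block, 3, 5, 0, 4 and 3 genes passed in the 5 comparisons in the order of the report. The shares of all genes were 52.7%, 67.7%, 4.75%, 57.5% and 62.0%. In that setting 1 gene (FOS) passed both thresholds for DTEP against Control.

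Values that changed sign were small in the fit over all libraries except where DTEP replicate 3 set them. FOS from Control to DTP was -0.00643 and -0.00254 with pseudocounts of 0.1 and 0.5, FOSL2 in that comparison 0.00841 in DESeq2, and under median-of-ratios scaling EGR1 in DTEP against Control was -0.0162 and ATF3 from DTEP to LR 0.00516. Leaving out single libraries gave, from Control to DTP, -0.40 to 0.42 for FOS, -0.22 to 0.0205 for FOSL2 and -0.0693 to 0.0816 for JUN. From DTP to DTEP it gave -1.19 to 0.11 for JUN, -0.77 to 0.23 for JUNB and -0.69 to 0.20 for IER2. From DTEP to LR it gave -1.33 to 0.76 for FOS, -0.85 to 0.40 for FOSB, -0.33 to 1.75 for EGR1, -0.30 to 0.23 for ATF3 and -0.18 to 0.71 for IER2, and for DTEP against Control -1.17 to 0.13 for JUN and -0.68 to 1.40 for EGR1. Over all genes, limma called 678, 2091, 94, 1466 and 1770 genes past both thresholds in the 5 comparisons, edgeR 1287, 3275, 605, 2364 and 2768, and DESeq2 1271, 3254, 699, 2353 and 2760. Depth limits FOSL1, at 0 to 4 reads per library.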
